A study of Mus musculus with 3 samples.

Results

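The promoters of the mitochondrial ribosomal proteins were captured by 72 of the 7184 viewpoints with contacts in the deposited table. A viewpoint is the DpnII restriction fragment, at a gene promoter, that was enriched with biotinylated probes. Members were the viewpoints whose name held a gene symbol starting with Mrpl or Mrps and a digit, and 0 of them had a name listed for more than 1 viewpoint. They named 72 distinct genes, 46 of the large ribosomal subunit (Mrpl) and 26 of the small subunit (Mrps), and lay on 17 chromosomes, with 0 on chromosome X. Mrpl46 and Mrps11 shared 1 viewpoint, and Mrpl48 was named by 2 viewpoints. Of the 72 viewpoints, 25 (34.7%) also carried the name of another gene, against 17.7% of all viewpoints, so their contacts belong to a promoter pair as much as to the ribosomal gene. The share was 29.3% for cytoplasmic ribosomal proteins, 31.9% for the respiratory chain and 33.3% for other genes of mitochondrial gene expression. These comparison lists overlap with the members, as Mrps12_Sars2 was in the last and Ndufb5_Mrpl47 in the respiratory chain. The last list was also defined to take Dap3 and Ptcd3, which encode mitochondrial ribosomal proteins.

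Contacts had been measured by nuclear-titrated (NuTi) Capture-C, in which chromatin is cut with DpnII, ends that lie close together are ligated, intact nuclei are isolated, and titrated probes pull down the ligation products of the chosen fragments. The 3 libraries form 1 group of ter119+ erythroid cells from the spleens of C57BL/6-cross-CBA/J hybrid mice of the F1 generation, as the labels give the strain, made anaemic with 3 doses of phenylhydrazine given 12 h apart and taken on day 5. There was no untreated, knockout or other cell type to compare with, so members were set beside all viewpoints of the same libraries. The labels do not say whether the 3 libraries came from separate animals, the table does not name its 3 columns (called libraries a, b and c here), and the table holds contacts and no expression, so the cell type could not be checked against its markers. Windows of contact were called by the procedure described for the members below at each of the captured erythroid promoters tested as a check, with 5 at Hba-1, 7 at Hba-2, 9 at Hbb-b1, 6 at Hbb-b2 and 2 at Slc25a37, the alpha-globin, beta-globin and mitoferrin genes. Since 46.4% of all viewpoints tested had a window, these counts say little about the cell type.

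Mitochondrial ribosomes translate the few proteins that the mitochondrial genome encodes, all of them subunits of the oxidative phosphorylation complexes. Their RNAs come from the mitochondrial genome, but all of their proteins are made from nuclear genes that are scattered over the chromosomes, translated in the cytoplasm and imported. Erythroid precursors need working mitochondria for heme synthesis before the organelles are removed. Promoters of nuclear genes for mitochondrial proteins are known for binding sites of the nuclear respiratory factor NRF1, of ETS factors such as GABPA (nuclear respiratory factor NRF2) and of YY1, while SP1 binds many promoters of widely expressed genes.

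The sequences just before the annotated starts of 6 members are shown because these promoters had the clearest distant contacts among members whose start lies inside the viewpoint and is not directly preceded by another annotated exon. They were read 5' to 3' on the strand of the gene from the mm9 genome and stop at the next annotated exon where that comes first. Capitals mark matches, on either strand, to the letters CCGGAAG (ETS), GCGCATGC (NRF1), AAGATGGC (YY1) or GGGCGG (SP1).
Mrpl32 (chr13:14705305-14705520, minus strand): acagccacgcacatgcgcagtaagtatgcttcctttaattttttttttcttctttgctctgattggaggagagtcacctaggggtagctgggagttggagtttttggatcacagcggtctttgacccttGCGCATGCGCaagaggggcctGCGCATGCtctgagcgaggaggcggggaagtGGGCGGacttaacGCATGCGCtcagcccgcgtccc
Mrpl22 (chr11:57984913-57985162, plus strand): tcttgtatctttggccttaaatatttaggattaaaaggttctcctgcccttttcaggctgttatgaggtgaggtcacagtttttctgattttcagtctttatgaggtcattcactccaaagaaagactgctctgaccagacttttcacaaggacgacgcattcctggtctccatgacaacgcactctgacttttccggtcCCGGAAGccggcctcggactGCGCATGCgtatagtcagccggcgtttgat
Mrps28 (chr3:8923919-8924168, minus strand): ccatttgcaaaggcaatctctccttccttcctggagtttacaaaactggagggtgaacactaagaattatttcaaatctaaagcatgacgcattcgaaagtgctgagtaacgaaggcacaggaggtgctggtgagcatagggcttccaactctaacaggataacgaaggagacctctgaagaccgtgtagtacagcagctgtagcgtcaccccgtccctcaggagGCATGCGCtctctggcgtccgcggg
Mrps17 (chr5:130221122-130221371, plus strand): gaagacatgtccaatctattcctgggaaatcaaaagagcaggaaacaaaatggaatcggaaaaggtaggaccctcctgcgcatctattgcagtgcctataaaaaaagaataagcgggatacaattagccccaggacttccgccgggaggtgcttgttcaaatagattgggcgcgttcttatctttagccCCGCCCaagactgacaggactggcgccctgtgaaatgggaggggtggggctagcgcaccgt
Mrpl17 (chr7:112959614-112959863, minus strand): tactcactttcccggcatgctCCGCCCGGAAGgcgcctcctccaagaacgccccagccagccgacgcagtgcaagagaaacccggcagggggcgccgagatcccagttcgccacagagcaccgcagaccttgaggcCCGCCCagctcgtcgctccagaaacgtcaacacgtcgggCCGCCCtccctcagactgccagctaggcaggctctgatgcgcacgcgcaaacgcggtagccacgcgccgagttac
Mrps27 (chr13:100114634-100114740, plus strand): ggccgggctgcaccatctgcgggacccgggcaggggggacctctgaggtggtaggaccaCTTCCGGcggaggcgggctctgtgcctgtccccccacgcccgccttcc

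The Mrpl32 sequence held 4 matches to the NRF1 letters, 2 of which overlap, and 1 to the SP1 letters. Mrpl22 held 1 ETS and 1 NRF1 match, Mrps28 held 1 NRF1 match, Mrps27 held 1 ETS match and Mrps17 held 1 SP1 match. In Mrpl17 the first run of capitals is an SP1 match that overlaps an ETS match, and 2 further SP1 matches follow.

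Over all members, the letters of the 3 factors linked with mitochondrial genes were found more often than over all captured promoters, and those of SP1 less often. The windows ran from 250 bases before to 50 bases after the start of each named gene, 73 for the members and 7911 for all viewpoints. The ETS letters were in 30 of 73 member promoters (41.1%) and in 24.2% of all promoters. The YY1 letters were in 12 (16.4%) against 6.41%, and the NRF1 letters in 9 (12.3%) against 6.96%. At least 1 of these 3 was in 41 member promoters (56.2%), against 34.0% of all. SP1 letters were in 36 (49.3%) against 67.7% of all promoters. Promoters of the respiratory chain, whose subunits include the products of mitochondrial translation, held ETS letters in 25.3%, NRF1 letters in 14.3% and YY1 letters in 14.3%, with SP1 letters in 50.5%. Promoters of cytoplasmic ribosomal proteins held ETS letters in 34.6% but NRF1 letters in 2.47% (2 of 81) and YY1 letters in 6.17% (5 of 81). These low shares depended on the region read. Over the whole viewpoint, NRF1 letters were in 12.3% of member, 8.64% of cytoplasmic ribosomal and 8.67% of all promoters. YY1 letters were there in 21.9%, 13.6% and 11.6%. None of the 4 motifs was in 17 of the 73 member windows and in 1699 of all 7911, like shares, which says only that these exact letters were not there.

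**Figure D1:**
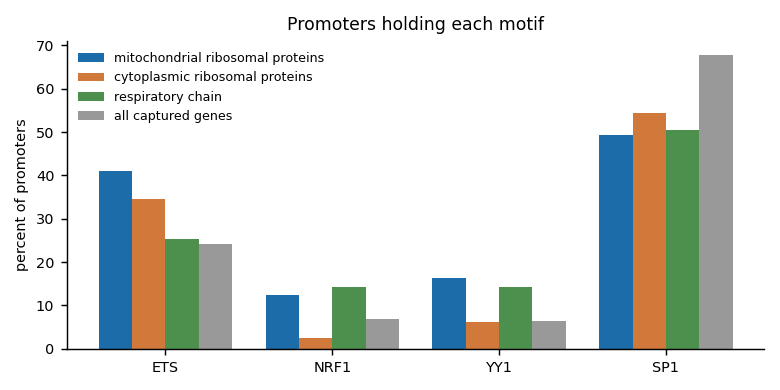
Percent of promoters (y axis, bars from 0), from 250 bases before to 50 bases after the start, that held the letters of each of 4 motifs (x axis), for members, cytoplasmic ribosomal proteins, the respiratory chain and all captured genes. Members held ETS letters in 41.1% and YY1 letters in 16.4%, above the 24.2% and 6.41% of all promoters, and SP1 letters in 49.3%, below the 67.7% of all.

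Members were captured somewhat more deeply than the average viewpoint. Each value here is a whole number of distinct ligation products joining a viewpoint to some other fragment on its own chromosome (cis events), worked back from the deposited scaled values. The members' median was 8518.5 cis events over the 3 libraries, against 6481.5 for all viewpoints, with medians of 1536.5, 3398.5 and 3278.5 in libraries a, b and c. Other genes of mitochondrial gene expression had a median of 8185, the respiratory chain 7721 and cytoplasmic ribosomal proteins 6566. At least 1000 events, the minimum for profiles, were reached by 70 of 72 members (97.2%) and by 93.6% of all viewpoints. Small subunit viewpoints had a median of 10589 events and large subunit viewpoints one of 7214.

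Depth ranged widely among members. Mrps22 had the most events, with 30918, 50108 and 49844 in libraries a, b and c. It is the only member on a stretch of chromosome 9 (chr9:50411503-99476395) that was set apart as deeply captured. The depth of the other viewpoints on that stretch was not examined here. Mrps12_Sars2 followed, with 7903, 11100 and 11116 events. Its promoter serves a protein of the ribosomal decoding site and the mitochondrial seryl-tRNA synthetase. Mrpl9 had 3455, 11566 and 11622 events. At the other end, Mrpl4 had 154, 209 and 188 events, Mrpl58 had 161, 295 and 243, and Mrpl37_Cyb5rl had 396, 557 and 604. Mrpl4 and Mrpl58 were below the minimum and do not enter the local shares, the called windows or the ratios next to other promoters. Mrpl58, also named Ict1, is the large subunit protein that releases peptides from stalled ribosomes.

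Library a was shallower at every one of the 70 members, at 0.586 times the mean of libraries b and c in the median (range 0.232 to 0.779), as over all viewpoints (0.590). This ratio was lower for longer viewpoints, with a Spearman correlation of -0.556 over the 70 members and -0.482 over 6718 viewpoints, all measured in the same libraries. Members' counts per fragment in libraries b and c, at fragments with at least 10 events, differed by less than sampling noise from 2.5 to 10 kb (chi-square per degree of freedom 0.656) and from 10 to 100 kb (0.809), and gave 1.04 from 100 kb to 1 Mb (p = 0.253). Libraries a and b gave 0.802, 0.971 and 1.18 in the same ranges, and libraries a and c 0.823, 0.889 and 1.19. In the farthest range p was 0.0152 for a against b and 0.00951 for a against c. Over all fragments with at least 1 event, where single counts are small, that range gave 1.04 for b against c, 1.05 for a against b and 1.05 for a against c, and the chi-square p was 1.28e-13 for b against c. From 10 to 100 kb these fragments gave 1.03 for a against b (chi-square p = 0.00324), 0.998 for a against c and 0.974 for b against c. The study describes its 3 libraries as independent. At fragments with at least 10 events, library a also differed from the others by less than sampling noise below 100 kb. These counts therefore do not settle whether libraries b and c are separate. As a cautious choice they were counted as 1 sample in each mean and SD (n = 2, library a and the mean of b and c), and the value of each library is given beside the mean. If they are not separate, a count above expectation in each library, or a call kept without library b or c, counts for less than 3 separate libraries would.

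In the median, members kept slightly fewer of their events nearby than all viewpoints in each of the 3 libraries, with nearly equal quartiles. The local share is the percent of cis events from 2.5 kb to 1 Mb from the viewpoint. Its median over 70 members was 40.4% (44.3%, 39.3% and 40.4% in libraries a, b and c, mean 42.1% ± 3.18, SD, n = 2), against 42.3% for all viewpoints (45.4%, 41.3% and 41.5%, mean 43.4% ± 2.81). The quartiles were 35.0% and 49.0% for members and 35.3% and 49.1% for all viewpoints. At 64 of 70 members the share was highest in library a, by a median of 3.87 percentage points over the mean of libraries b and c. Cytoplasmic ribosomal proteins had 44.0%, the respiratory chain 42.0% and other genes of mitochondrial gene expression 41.1%. Within the members, the large subunit had a median of 43.0% and the small subunit 37.8%. Most of what was not local lay far away, with median shares of 21.4% from 1 to 10 Mb and 35.5% beyond 10 Mb.

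Single members spread much more than the lists. The highest local shares were at Mrpl49_Fau (72.0%, 67.4% and 69.7% in libraries a, b and c), Mrpl20 (65.2%, 62.8% and 62.9%) and Mrpl11 (67.0%, 62.7% and 60.6%). Fau encodes a fusion of a ubiquitin-like protein with the cytoplasmic ribosomal protein S30. The lowest were at Mrpl19 (25.4%, 24.3% and 24.8%), Mrpl1 (29.2%, 25.7% and 27.1%), a protein of the mobile stalk beside the tRNA exit, and Mtbp_Mrpl13 (30.1%, 26.1% and 26.6%). The 3 libraries of a high member did not overlap with those of a low member. The members were chosen by this same share, so that gap carries no weight as support. The high members lay among many other captured promoters, 48 within 1 Mb of Mrpl49_Fau, 50 of Mrpl11 and 20 of Mrpl20, and the low ones among few, 2 for Mrpl19, 2 for Mrpl1 and 3 for Mtbp_Mrpl13. Local share and number of neighbours had a Spearman correlation of 0.764 over the 70 members and 0.648 over the 6718 viewpoints of the same libraries. The median number of neighbours was 16 for members and 11 for all viewpoints. Whether captured neighbours or the gene density they stand for go with the share was not tested.

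Of the 3 captured genes of the stalk that recruits translation factors, Mrpl11 and Mrpl12 had like local shares and Mrpl10 a lower one. Mrpl11, at the stalk base, and Mrpl12, the repeated stalk protein, had local shares of 62.5% and 62.4% (66.9%, 60.4% and 61.6% in libraries a, b and c for Mrpl12). Mrpl10, which anchors Mrpl12, shares its viewpoint with Lrrc46 and had 44.7% (45.7%, 46.3% and 42.6%).

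**Figure D2:**
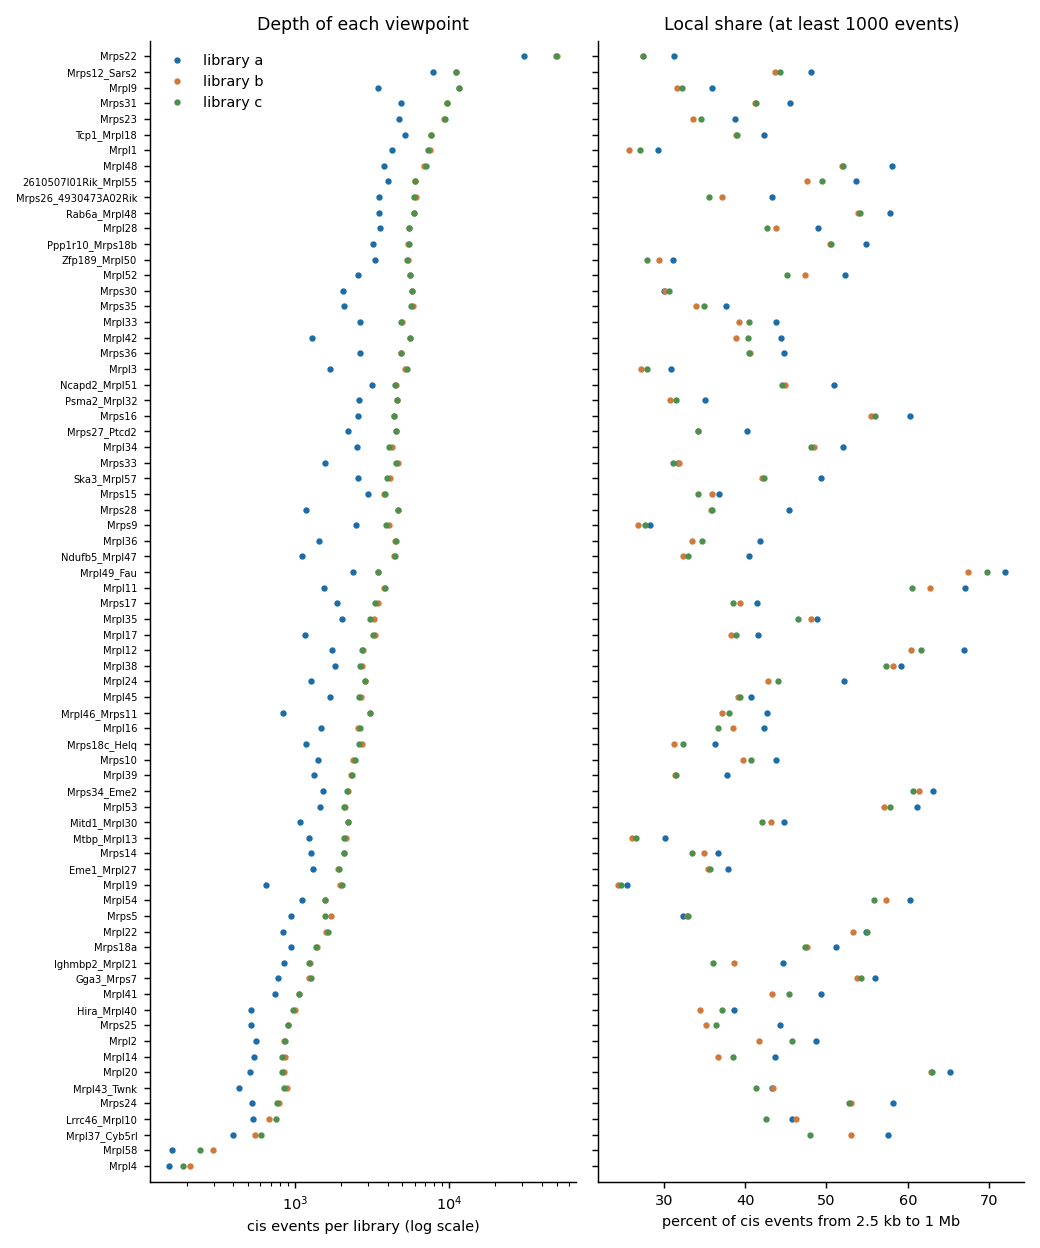
Cis events (left, log axis) and local share (right, percent of cis events from 2.5 kb to 1 Mb) of each member, 1 member per line ordered by depth, with a point for each of libraries a, b and c. Libraries b and c lie nearly on top of each other in depth while library a is lower, and the local share is highest in library a at 64 of 70 members.

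Events of members fell with distance at nearly the rate of all viewpoints. The slope of log events per fragment on log distance from 10 kb to 1 Mb was -0.829 (-0.862, -0.817 and -0.821 in libraries a, b and c, mean -0.841 ± 0.0306, SD, n = 2), against -0.851 over all viewpoints (-0.885, -0.842 and -0.841, mean -0.863 ± 0.0309). The large subunit gave -0.877 and the small subunit -0.778, but the small subunit gave -0.831 without the deeply captured Mrps22.

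Contacts above the level set by distance were called in windows of 5 kb. The expected count of a window followed from its distance and the viewpoint's total from 2.5 kb to 1 Mb, and the summed count of the 3 libraries was compared with it in a 1-sided negative binomial test over all windows of all viewpoints, with Benjamini-Hochberg adjustment and the condition that each library exceeded its own expectation. These p-values rest on counts and not on the spread between animals. At least 1 window was called at 35 of 70 members (50%), against 46.4% of all viewpoints tested. Among viewpoints with at least 5000 events it was 33 of 53 members (62.3%) against 49.7% of all. Called windows numbered 108 of 27592 tested at members (0.391%), against 0.339% of all windows. The members' share of called windows was close to that background. Members with a called window had a median of 10561 events and those without one 6284.

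The count depended on single libraries and on the estimate of the dispersion. Without library b it was 56 windows at 30 members (42.9%, against 36.1% of all viewpoints tested). Without library c it was 68 windows at 23 members (33.3% against 36.8%), and without library a 86 windows at 28 members (40% against 41.8%). Of the 35 members with a window, 16 had none without at least 1 of the libraries. The same count was not made over all viewpoints, so it is not read as a trait of the members. The dispersion was estimated without the highest 1% of counts in each distance bin. With all counts kept, 11 windows were called at 3 members (4.29%, against 7.17% of all viewpoints tested). Of these windows 9 were at Psma2_Mrpl32 and the others at Mrps28 and Mrpl46_Mrps11. The members' share was thus above that of all viewpoints in some settings and below it in others.

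Called windows overlapped exons more often than the windows tested, and were spread over distance much like them. An exon was overlapped by 61 of the 108 (56.5%, and 58.8% without Psma2_Mrpl32), against 39.4% of the members' tested windows. An intron alone was overlapped by 18 (16.7% against 17.9%), and 29 were intergenic (26.9% against 42.6%). Within 100 kb lay 11 (10.2% against 9.62% of tested windows), from 100 to 500 kb 40 (37.0% against 40.2%) and farther 57 (52.8% against 50.2%, and 43.5% without Psma2_Mrpl32). Adjacent windows merged into 80 stretches. Observed over expected counts ran from 2.86 to 20.4 with a median of 5.88, and 86 windows had fewer than 10 expected events. An annotated gene start lay in 28 (25.9%), against 12.1% of the members' tested windows and 30.9% of the called windows of all viewpoints. Another captured promoter lay in 20 (18.5%), against 4.55% of the members' tested windows and 24.3% of all called windows. A sequence word of 30 bases shared with the viewpoint was found in 3 of the 108, 2 at Mrpl9 and 1 at Mrps22.

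**Figure D3:**
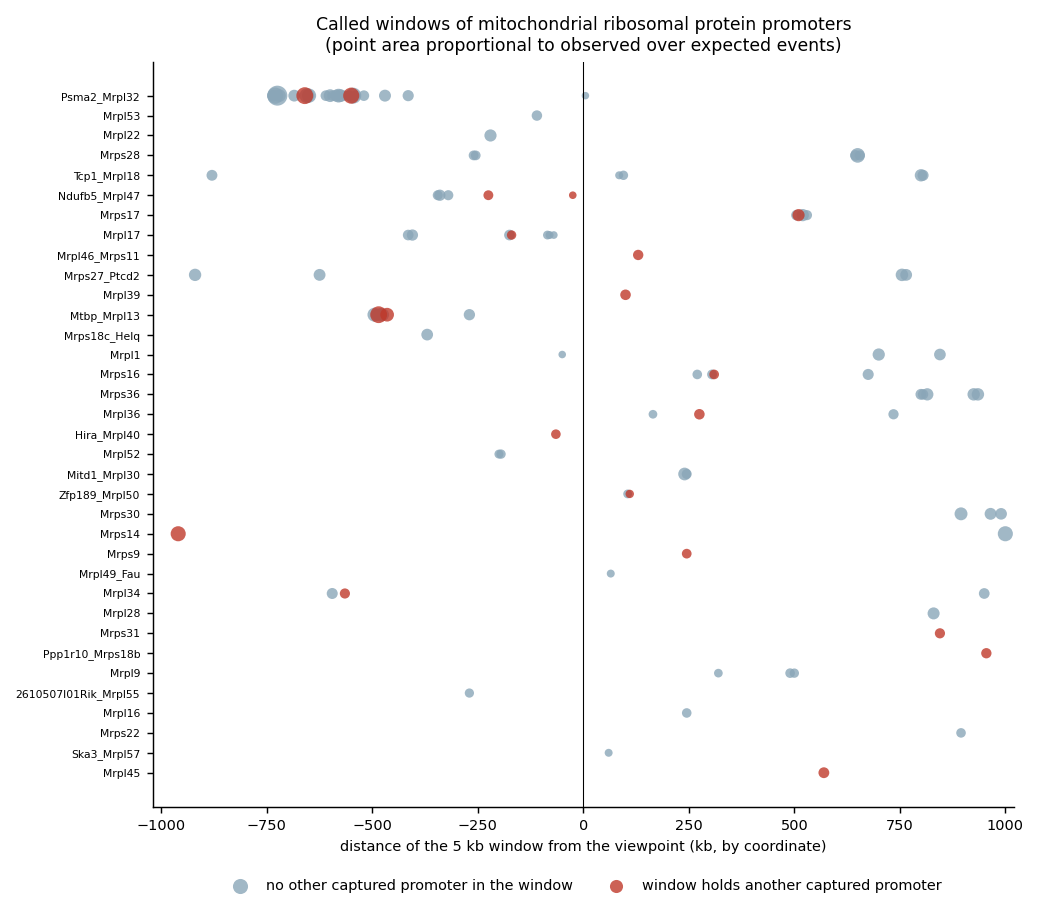
Called 5 kb windows of the 35 members that have any, 1 member per line in order of adjusted p, by signed distance from the viewpoint (x axis, kb), with point area for the observed over expected count and red points for windows that hold another captured promoter. Psma2_Mrpl32 holds 23 windows, all but 1 on the side of lower coordinates, and the other members hold 1 to 7.

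By list, windows were called at 23 of 45 large subunit (51.1%) and 13 of 26 small subunit viewpoints (50%), against 46.4% of all viewpoints tested. They were also called at 45 of 79 cytoplasmic ribosomal proteins (57.0%) and 45 of 89 of the respiratory chain (50.6%). Other genes of mitochondrial gene expression had them at 21 of 44 (47.7%). The lists differed in depth, and these shares were not matched for it. Among viewpoints from 5000 events up to a set upper limit, the share was 61.7% for members and 50.9% for all viewpoints. It was 62.5% for cytoplasmic ribosomal proteins, 56.6% for the respiratory chain and 46.2% for other genes of mitochondrial gene expression. Within the large subunit, proteins around the exit of the polypeptide tunnel had windows at 5 of 6 viewpoints, the central protuberance at 3 of 6 and the stalk at 0 of 3. The head of the small subunit had windows at 3 of 7. These lists are small and were not tested against each other.

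The promoter shared by Mrpl32 and Psma2 stood apart in the number of its windows. Mrpl32 is a large subunit protein that a mitochondrial protease must cleave before it can join the ribosome, and Psma2 is an alpha subunit of the proteasome core. Its 129 bp viewpoint (chr13:14705286-14705414) had 2613, 4592 and 4599 cis events in libraries a, b and c. It had 23 called windows, a number reached by 11 of 6718 viewpoints, and 17, 15 and 17 when library a, b or c was left out. All but 1 of them lay from -735 to -415 kb, where a minus sign stands for lower coordinates, the side of the Mrpl32 gene body. The other lay at 5 kb in Psma2.

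The window with the lowest adjusted p among all members, 1.8e-10, was at -660 kb (chr13:14042850-14047849) and holds the start of B3galnt2, a glycosyltransferase of alpha-dystroglycan. It had 18, 18 and 21 events in libraries a, b and c, 57 in all against 3.91 expected (14.6-fold). Each library was far above its expectation, which was 0.873, 1.49 and 1.54 events. The window at -550 kb, with the starts of Arid4b, a chromatin protein, and Ggps1, an enzyme of isoprenoid synthesis, had 6, 18 and 11 events against 2.63 expected in all (13.3-fold). Between these genes lies Tbce, a tubulin folding cofactor, with 6 called windows from -610 to -575 kb at 5.26-fold to 9.71-fold. The highest ratio, 20.4, came from 15 events against 0.736 at -725 kb, where no gene is annotated, with 6, 4 and 5 events in the libraries.

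The excess was a domain rather than single points. From -740 to -410 kb, limits chosen after the profile had been seen, the promoter had 1123 events against 236 expected (4.76-fold), with ratios of 5.13, 4.73 and 4.57 in libraries a, b and c (4.89 ± 0.338, SD, n = 2). This range held 29.8% of its events from 2.5 kb to 1 Mb, and 0 of its fragments shared a word of 30 bases with the viewpoint. The nearer range, from -410 to -2.5 kb, was at 0.883 times expectation, and the other side of the promoter at 0.826. Beyond the domain, from -1000 to -740 kb, the ratio was 2.09. The contact was seen from its other end as well. The B3galnt2 viewpoint had 15 events at the window of Psma2_Mrpl32 against 1.28 expected (11.7-fold, negative binomial adjusted p = 0.000465), with 5, 4 and 6 in the libraries, whereas no window was called there from Arid4b_Ggps1.

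**Figure D4:**
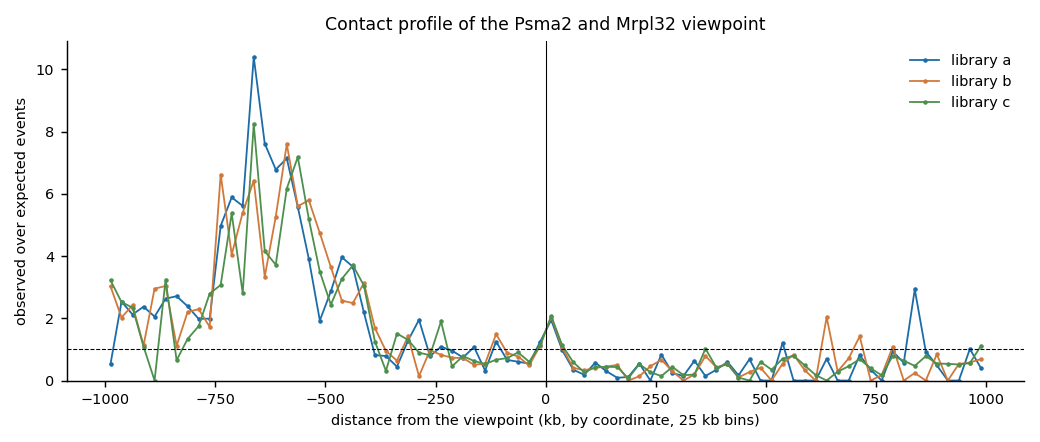
Observed over expected events (y axis) of the Psma2_Mrpl32 viewpoint in bins of 25 kb by signed distance (x axis, kb), with a line for each of libraries a, b and c. All 3 lines stand above 1 between -740 and -410 kb, where the ratio is 4.76, and scatter on both sides of 1 from there to the promoter, where the ratio over the whole range is 0.883.

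Among the other large subunit members, windows near the tunnel exit were at 5 viewpoints, of which Mrpl22, Mrpl17, Ndufb5_Mrpl47 and Mrpl39 are given here. Mrpl22 had 1 window, at -220 kb in intergenic sequence (chr11:57762532-57767531), with 4, 11 and 12 events in libraries a, b and c against 3.55 expected (7.61-fold, negative binomial adjusted p = 0.000296). Its count was lowest in the shallowest library, and a count above expectation in each was a condition of the call. Mrpl17 had 7 windows, and the first by adjusted p (0.00135) was at -405 kb at the start of Cnga4, a subunit of an olfactory cation channel, with 10, 13 and 14 events against 5.68 (6.52-fold). Ndufb5_Mrpl47, which also serves a complex I subunit, had 5 windows. Its first, at -340 kb, holds the start of Pik3ca, the catalytic subunit of a phosphoinositide kinase, with 8, 12 and 17 events against 5.69 (6.51-fold, negative binomial adjusted p = 0.000778). Mrpl39 had 1 window, at 100 kb (chr16:84832868-84837867), with 9, 7 and 11 events against 4.72 (5.72-fold, negative binomial adjusted p = 0.00193). It holds the divergent promoter of Atp5j, a subunit of the ATP synthase stalk, and Gabpa, the DNA-binding subunit of the ETS factor named above. Without library b the windows numbered 3 at Mrpl17 and 1 at Ndufb5_Mrpl47, and without library a 4 at Mrpl17.

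Of the central protuberance, Tcp1_Mrpl18 had 5 windows. Tcp1 is a subunit of the cytosolic chaperonin, and the first window lay at 95 kb in Sod2, the mitochondrial superoxide dismutase, with 22, 43 and 42 events against 23.5 (4.55-fold, negative binomial adjusted p = 0.000777). Without library b Tcp1_Mrpl18 had 2 windows, and without library c 3. Mrpl46_Mrps11 had 1 window, at 130 kb over Aen and the start of Isg20, both nucleases, with 8, 18 and 12 events against 6.92 (5.49-fold, negative binomial adjusted p = 0.00145). Hira_Mrpl40, shared with a histone chaperone, had 1 window at -65 kb. It holds the promoter of Ufd1l and Cdc45, a replication helicase component, and had 7, 11 and 9 events against 5.72 (4.72-fold, negative binomial adjusted p = 0.00646).

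The rest of the large subunit members named by rule had contacts in both genes and intergenic sequence. Mrpl53 had the second lowest adjusted p of all members, 9.02e-05, at a single window at -110 kb in an intron of D6Mm5e. Its events were 21, 26 and 25 against 12.9 expected (5.60-fold), so the 3 libraries were alike although library a was shallower. Mtbp_Mrpl13 had 7 windows, 6 of them from -495 to -465 kb over Taf2, a subunit of the general factor TFIID, and Dscc1, a factor of sister chromatid cohesion. The one with the lowest adjusted p (0.00255) holds the Dscc1 start, with 4, 7 and 3 events against 1.45 (9.65-fold). The windows of Mtbp_Mrpl13 fell to 1 without library b and to 4 without library c. Mrpl1 had 3 windows, the first at 700 kb in intergenic sequence with 7, 7 and 7 events against 2.74 (7.67-fold, negative binomial adjusted p = 0.00368). Mrpl36, a small protein of the large subunit, had 3 windows. The first of these, at 275 kb at the start of Clptm1l, had 8, 10 and 16 events against 5.97 (5.69-fold, negative binomial adjusted p = 0.00446). Without library b both Mrpl1 and Mrpl36 had 1 window.

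Mrpl52 and Mitd1_Mrpl30 had 2 windows each, and in both cases the windows were adjacent. For Mrpl52 the first was intergenic at -195 kb, with 11, 22 and 26 events against 13.2 (4.48-fold, negative binomial adjusted p = 0.00695). Mitd1_Mrpl30 met the start of Rev1, a polymerase of translesion synthesis, at 240 kb with 5, 5 and 2 events against 1.44 (8.34-fold, negative binomial adjusted p = 0.0079). Without library b no window was called at Mitd1_Mrpl30 or at Hira_Mrpl40, and 1 at Mrpl52. Mitd1_Mrpl30 had 1 window without library a or c.

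Of viewpoints naming small subunit genes alone or with a partner outside the ribosome, 6 were among the 20 members with the lowest adjusted p. Mrps28 had 5 windows, and the first by adjusted p (0.000522) was at 650 kb in an intron of Zfp704, with 3, 6 and 7 events against 1.46 (11-fold). Another 2 lay at Hey1, a transcription factor of the Notch pathway, at -260 and -255 kb. Mrps17 had 4 windows together from 505 to 530 kb over Sbds, needed for maturation of the cytoplasmic large ribosomal subunit, and Tyw1, an enzyme of tRNA modification. The window in Tyw1 at 520 kb had 10, 12 and 6 events against 3.65 (7.68-fold, negative binomial adjusted p = 0.000838), with the lowest count in library c. Mrps27_Ptcd2, whose gene products both belong to the pentatricopeptide repeat proteins of mitochondrial RNA, had 4 windows. The first lay at 755 kb in Bdp1, a subunit of the RNA polymerase III factor TFIIIB, with 3, 11 and 9 events against 2.87 (8.02-fold, negative binomial adjusted p = 0.00187). Without library b or c, Mrps28 had 3 windows each time and Mrps27_Ptcd2 had 1 and 2.

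Mrps16 had 4 windows, the first at 305 kb in Fut11 with 17, 25 and 29 events against 14.3 (4.97-fold, negative binomial adjusted p = 0.00372). The adjoining window at 310 kb holds the promoter of Chchd1, itself a protein of the small mitochondrial ribosomal subunit whose symbol the rule does not take, and had 37 events against 7.69 (4.81-fold, negative binomial adjusted p = 0.0146). Mrps36, first assigned to the small subunit and later found in the alpha-ketoglutarate dehydrogenase complex, had 5 windows from 800 to 935 kb. The first of them, intergenic at 815 kb, had 3, 6 and 12 events against 2.71 (7.74-fold, negative binomial adjusted p = 0.00419). Mrps18c_Helq, shared with a DNA helicase, had 1 intergenic window at -370 kb with 10, 7 and 4 events against 2.98 (7.05-fold, negative binomial adjusted p = 0.00329). Here the shallowest library had the most events, and no window was called without library a. Without library b or c, Mrps16 had 2 windows each time and Mrps36 had 2 and 3. The other 15 members with a called window had 1 to 3 each, at 3.24-fold to 11.6-fold.

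Where a window holds another captured promoter, the contact could be read from both ends, and 8 of the 19 such windows that were measured were also called from the other promoter (42.1%), against 35.3% over all viewpoints. Mrps16 and Chchd1 had 31 events from Chchd1 against 5.09 (6.09-fold, negative binomial adjusted p = 0.00269), with 10, 10 and 11 in the libraries. Mrpl39 and Atp5j_Gabpa had 47 from the latter against 13.0 (3.60-fold, negative binomial adjusted p = 0.0339), with 12, 21 and 14. Mrps17 and Sbds_Tyw1, 510 kb apart, had 20 events against 2.65 in one direction (7.54-fold) and 17 against 2.06 in the other (8.23-fold, negative binomial adjusted p = 0.00329), with 3, 11 and 3 in the libraries.

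The nearest of these 8 pairs was Ndufb5_Mrpl47 with Actl6a, a subunit of chromatin remodelling complexes, at -25 kb. It had 160 events against 54.1 (2.96-fold) and 109 against 26.4 from Actl6a (4.13-fold). The pair of Mtbp_Mrpl13 with Dscc1 at -465 kb had 31 events from Dscc1 against 4.78 (6.48-fold), with 6, 7 and 18 in the libraries, so library c carried most of them, and fewer windows of Mtbp_Mrpl13 were called without library b, as given above. Hira_Mrpl40 with Ufd1l_Cdc45 had 119 against 37.3 from the other end (3.19-fold). Mrps9, of the small subunit head, with Tgfbrap1_AI597479 at 245 kb had 31 against 6.41 (4.84-fold, negative binomial adjusted p = 0.0169) and 21 against 3.85 from the other end (5.45-fold), but no window was called at Mrps9 without library a or without library b. The last pair is Psma2_Mrpl32 with B3galnt2, given above.

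Single DpnII fragments were tested in the same way, but the dispersion left out the highest 0.1% of counts, against 1% for windows. At this resolution 6 fragments of 3 members were called. They were 0.0020% of the 300216 tested at members, below the 0.00411% of all fragments tested. A called fragment was found at 4.29% of members and at 7.84% of all viewpoints tested. Psma2_Mrpl32 had 3, of which 2 lay beside or in B3galnt2 at -660 and -657 kb with 12 events each against 0.279 (negative binomial adjusted p = 0.000675), in libraries a, b and c 4, 3 and 5 at the first and 6, 4 and 2 at the second. Its other one lay in Arid4b at -469 kb, with 2, 3 and 5 events against 0.409. Mrpl22 had 1 inside its called window, with 3, 3 and 5 events against 0.507 (negative binomial adjusted p = 0.0129). Mrpl17 had 2, in an exon of Cnga4 with 2, 4 and 4 events against 0.378 (negative binomial adjusted p = 0.0211) and at 277 kb with 1, 6 and 4 against 0.547. Without library c only 1 fragment was called, at Psma2_Mrpl32, without library b 4 were, 3 of them among the 6, and without library a 5 were, 2 of them among the 6 and none at Mrpl22.

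Members met the surroundings of other captured promoters more than distance gave, as viewpoints in general did. Targeted fragments themselves have no contacts in the table, so the fragments 1 to 2 places from each other viewpoint within 1 Mb were used. Members with at least 1000 events had 7132 there against 5369 expected, a ratio of 1.33 (1.30, 1.35 and 1.32 in libraries a, b and c, mean 1.32 ± 0.0292, SD, n = 2). Over all viewpoints the ratio was 1.43 (1.41, 1.43 and 1.43, mean 1.42 ± 0.0148). Cytoplasmic ribosomal proteins had 1.31, the respiratory chain 1.32 and other genes of mitochondrial gene expression 1.32. Of the 68 members with such fragments, 61 were above 1. The share of all viewpoints above 1 was not counted, and their summed ratio of 1.43 does not give it. The count of 61 is therefore not read as a trait of the members. The ratio depended on the fragments taken, and so did its order against all viewpoints. It was 1.09 against 1.24 of all viewpoints at 1 place, and 1.54 against 1.53 at 3 to 5 places. Members in crowded surroundings had lower ratios, with a Spearman correlation of -0.595 between ratio and number of neighbours. The median number of captured viewpoints within 1 Mb was 16 for members and 11 for all viewpoints. The ratios above were not matched for this number. Mtbp_Mrpl13, with 3 neighbours, had the ratio 9.31 from 15 events against 1.61, while Mrpl11, with 50, had 192 against 187 and Mrpl12, with 35, had 205 against 228.

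Members of the same chromosome also met each other over long distances, at about the rate of viewpoints in general. For the 148 member pairs more than 1 Mb apart, on 16 chromosomes, events within 25 kb of the partner summed to 1.99 times expectation (1.96, 1.91 and 2.08 in libraries a, b and c, mean 1.98 ± 0.0257, SD, n = 2). All viewpoint pairs gave 2.11 (mean 2.14 ± 0.0608), pairs of cytoplasmic ribosomal proteins 2.86, of the respiratory chain 2.5 and of other mitochondrial gene expression 2.05. Of the 28 member pairs with at least 10 expected events, 24 were above 1, 19 of them in each library, with a median of 1.63 and a range from 0.0995 to 4.55. The share of all viewpoint pairs above 1 was not counted. That all pairs summed to 2.11 times expectation does not give this share, so the count of 24 is not read as a trait of the members.

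The highest of these ratios joined Ppp1r10_Mrps18b and Tcp1_Mrpl18, 22.9 Mb apart on chromosome 17, with 18, 20 and 20 events against 12.7 in all (4.55-fold). Mrps18b shares its promoter with a regulatory subunit of protein phosphatase. 2610507I01Rik_Mrpl55 and Mrpl22, 1.03 Mb apart on chromosome 11, had 21, 32 and 34 events against 26.8 (3.25-fold). Mrpl28 and Ppp1r10_Mrps18b, 9.79 Mb apart, had 6, 13 and 11 events against 10.4 (2.87-fold). Pairs were chosen for these ratios, so the values are a description.

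The members nearest to each other had too few events to compare, apart from the 2 viewpoints of the same gene. The 2 viewpoints of Mrpl48, 24.1 kb apart, had 22, 35 and 32 events at each other's surroundings against 73.7 in all (1.21-fold). Gga3_Mrps7 and Mrpl58, 200 kb apart, had 1 event against 2.12, and Lrrc46_Mrpl10 and Mrpl45, 274 kb apart, had 4 against 2.63. At this depth neither of the last 2 could be told from expectation.

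**Figure D5:**
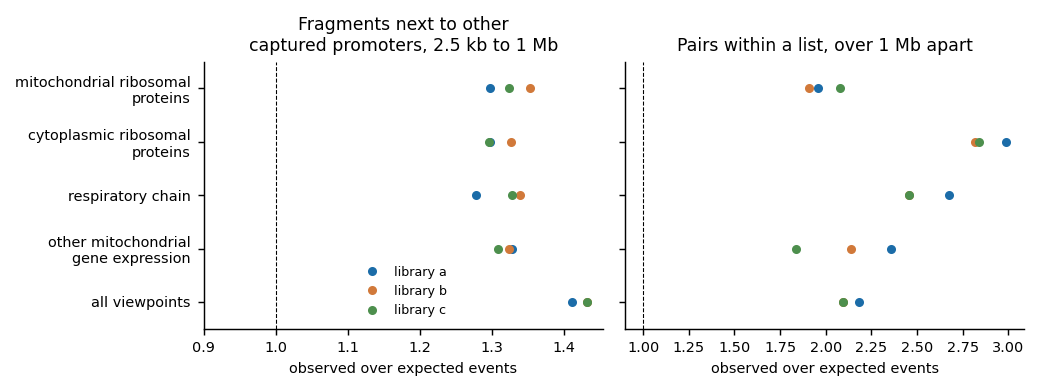
Observed over expected events (x axis) at fragments next to other captured promoters from 2.5 kb to 1 Mb (left) and between viewpoints of the same list over 1 Mb apart (right), for members, the comparison lists and all viewpoints (rows), with a point for each library and a dashed line at 1. Members are at 1.33 and 1.99 over the 3 libraries together, all viewpoints at 1.43 and 2.11, and cytoplasmic ribosomal proteins at 1.31 and 2.86.

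Events of members were shared evenly between both sides of the promoter. The median share on the side of the gene body was 50.4% over 69 members (51.2%, 50.6% and 51.0% in libraries a, b and c, mean 51.0% ± 0.258, SD, n = 2), against 51.0% over 5765 viewpoints. Of the 69, 12 were over 60% and 7 under 40%, shares near those of all viewpoints (1047 and 791 of 5765). Mrpl36 had the highest share, 76.7%, and Mrps18c_Helq the lowest, 30.5%, while the promoter of Mrpl32 and Psma2 had 66.7% on the Mrpl32 side, where the domain described above lies.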

How the data were processed

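NuTi Capture-C contacts of 3 libraries of 1 group were analysed. Per the labels the authors trimmed and aligned reads to mm9 with Trim Galore and Bowtie (versions not given in the sources used here). Their methods used CCseqBasic for unique reporters and CaptureCompare for scaling. The deposited values are a signal, reporters per 100000 cis reporters of each viewpoint and library. Taking the smallest value of each viewpoint and library as 1 event gave whole numbers for 100% of values (tolerance 0.01), so whole events were tested where a signal had been planned. Cis events numbered 18230099, 34428035 and 34233560 in libraries a, b and c. The 8 names listed for 2 viewpoints were left out, targeted fragments had 0 contacts, and peaky, the authors' caller, was not run.

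Expected counts came from 50 log-spaced distance bins. The negative binomial dispersion was set by moments in each bin, without the highest 1% of windows or 0.1% of fragments, and calls needed an adjusted p under 0.05. Code was tested on simulated data and run with Python 3.11.15, numpy 2.4.6, pandas 2.3.3, scipy 1.17.1 and matplotlib 3.10.9. Members, lists and tests were chosen with earlier results of these data known. Named were the 20 members with the lowest adjusted p of a called window, the 3 most and least deep, the 3 highest and lowest local shares, the 3 closest pairs and 3 highest long-range pairs, the stalk, and the first 6 promoters by adjusted p that started inside the viewpoint with at least 100 bases free of annotated exons. Other windows, ranges, motif regions, dispersions and minimum depths were tried, as was leaving out each library.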

Additional observations from a re-analysis of the deposited data

How the results depend on the processing

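Of 76 alternatives over 13 results, 44 left the result the same and 32 moved it. A result counted as the same within the replicate spread, within 1.5 times for a count, or within the 95% binomial interval for a motif share. Reversals were not scored. Called windows and members with them fell to 44 and 21 at an adjusted p under 0.01, to 47 and 23 when the dispersion was estimated without the top 0.1% of counts, and to 11 and 3 when it used all counts. In that order, members with a window were 30%, 32.9% and 4.29%, against 23.9%, 27.2% and 7.17% of all viewpoints tested. Leaving out 1 library gave 56 to 86 windows and 23 to 30 members. Called fragments numbered 2 when the dispersion used all counts, 27 without the top 1% and 18 with fragment length in the expectation. In that order, members with a called fragment were 1.43%, 17.1% and 15.7%, against 2.31%, 24.0% and 13.3% of all viewpoints tested. Without 1 library, 1 to 5 fragments were called. Of the 6 fragments, 4 were among those called with fragment length and 2 among those called without library a. The local share was 35.2% from 10 kb to 1 Mb and 34.5% from 2.5 to 500 kb. The decay slope was -0.868 with each member scaled equally. The ratio next to other promoters was 1.09 at 1 place, 1.54 at 3 to 5 places, 1.44 without viewpoints within 10 kb and 1.36 with members weighted equally. The ratio of distant member pairs was 2.32 within 10 kb, 1.74 within 50 kb, 2.17 with pairs weighted equally and 1.92 to 2.04 without 1 library. SP1 letters were in 63.0% over the wider window and 68.5% over the whole viewpoint, against 76.4% and 80.0% of all promoters there. The share on the gene body side was 51.3% from 10 kb, 49.2% up to 100 kb, 51.7% relative to expectation and 50.1% to 50.8% without 1 library. The cause of these changes was not tested. No paired analysis was possible because the libraries form 1 group and no groups share replicate numbers. Of the 108 windows, 86 had fewer than 10 expected events, so counting error is large for each.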
